A study of Mus musculus with 6 samples.

Results

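Integrins of fibroblasts were examined through the messenger counts of 10 subunit genes, Itga1, Itga2, Itga3, Itga4, Itga5, Itga6, Itgav, Itgb1, Itgb3 and Itgb5, chosen by gene symbol from the 25793 genes in the count tables. All 10 were found, and all 10 had at least 1 CPM (counts-per-million of the scaled library size) in at least 1 library, as did 14810 genes in all. The RNA came from primary embryonic fibroblasts of the mouse, isolated at E13.5 and cultured with serum, with 1 library for each of 6 genotypes. The mutant libraries were labelled β2SP+/- (heterozygous for a knockout of Sptbn1, the gene of beta-II spectrin, and written Sptbn1+/- here), β2SP-/- (homozygous, Sptbn1-/-), SMAD3+/- (heterozygous for a knockout of Smad3, Smad3+/-), SMAD3-/- (homozygous, Smad3-/-) and heterozygous for both genes (the double heterozygote), and the last library was wild type (WT). No treatment is named, and neither the deleted exons nor the number of embryos per culture is given. Since each genotype has 1 library, no comparison has a replicate check, and each sets library against library.

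Integrins are cell-surface receptors made of an alpha and a beta chain. The alpha chain largely sets which matrix protein is bound, while the short tail of the beta chain recruits talin, kindlin and the other proteins that tie the receptor to actin. Fibroblasts use them to hold and assemble collagen and fibronectin, and integrins that contain alphav can release TGF-beta from its latent complex. Smad3 carries the TGF-beta signal into the nucleus, and beta-II spectrin is a membrane-skeleton protein that has been described as a partner of Smad3. The design therefore asks how the integrin set of a fibroblast differs when either protein, or both, is reduced.

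Counts on genes came to between 6856680 in the Sptbn1-/- and 31125055 in the double heterozygous library. Of the uniquely placed reads, 80.1% in the Smad3-/- and 81.2% in the double heterozygous library lay on genes, against 40.9 to 43.3% in the other 4 libraries, so those 2 libraries stood apart in make-up from WT. In every comparison of those 2 libraries with the other 4, genotype and that difference in make-up cannot be told apart, for any gene. Smad3 counts ran against the labels, at 79.5, 106 and 203 CPM in the libraries labelled Smad3+/-, Smad3-/- and double heterozygote, against 53.3 CPM in WT. Sptbn1, listed as Spnb2, was at 1071, 771 and 695 CPM in the libraries labelled Sptbn1+/-, Sptbn1-/- and double heterozygote, against 1419 CPM in WT. Directions below are therefore those of the libraries so labelled. Xist was at 2747 CPM in the Smad3+/- library and at 0.0637 to 16.3 CPM in the other 5, so it came from female cells and WT from male ones. Fibroblast markers were present in every library, with a summed level of 17411 to 48001 CPM over 12 genes and none at 0 counts. Of these 12 markers 2 were higher and 8 lower in Smad3-/-, and 6 higher and 1 lower in the double heterozygote, than in WT. By the same rule, given below, 24.2% of all genes were higher and 25.2% lower in Smad3-/-, and 21.6% and 19.1% in the double heterozygote.

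In the following, ranges in parentheses are exact Clopper-Pearson 95% intervals of a count ratio, which cover counting error only. Calls need an interval that lies entirely past 1.5-fold, in either direction. In bulk RNA, fewer cells of a type and less RNA per cell cannot be told apart.

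No integrin subunit was called in the Sptbn1+/- library against WT (0 of 10, where 1.83% of the 14810 genes were called, 0.635% higher and 1.2% lower), and none in the Sptbn1-/- library (0 of 10, where 1.06% were called, 0.648% higher and 0.412% lower). The members' median log2 ratio was -0.25 in Sptbn1+/- and -0.06 in Sptbn1-/-, beside -0.01 and -0.00 over all genes compared. The gene closest to a call in both was Itga2, a collagen-binding alpha chain, at 54.9% (41.1 to 72.6) of WT in Sptbn1+/- and 54.1% (40.4 to 71.7) in Sptbn1-/-. Between the libraries Sptbn1-/- and Sptbn1+/-, 0 of 10 were called, where 1.3% of all genes were (0.925% higher, 0.378% lower). Point ratios of Itga2, Itga3 and Itgb3 in Sptbn1+/- and of Itga2 in Sptbn1-/- lay past 1.5-fold, but their intervals reached inside it, so no call could be made at this depth.

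In the Smad3+/- library 1 of 10 subunits was called, lower, where 6.1% of all genes were called, 1.64% higher and 4.46% lower. Itga1, the alpha chain of a collagen IV and collagen I receptor, was 2.29-fold (1.97 to 2.68) lower than in WT. The median log2 ratio of the members was 0.07, beside 0.01 over all genes. The Itga1 call was lost at a bound of 2-fold and when the interval was widened by the dispersion among libraries.

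The Smad3-/- library differed from WT in 8 of 10 subunits, 4 higher and 4 lower, where 49.4% of all genes were called, 24.2% higher and 25.2% lower. The laminin-binding alpha chains Itga3 and Itga6 were 9.15-fold (7.11 to 12.0) and 5.27-fold (4.72 to 5.91) higher, and Itgb5 and Itgav, which pair with each other, 1.82-fold (1.72 to 1.94) and 1.75-fold (1.69 to 1.81) higher. Itga1, Itga4, Itga2 and Itga5 were 3.56-fold (3.10 to 4.09), 3.11-fold (2.65 to 3.66), 1.91-fold (1.57 to 2.32) and 1.80-fold (1.73 to 1.87) lower. The median log2 ratio was 0.11 in the members and 0.06 over all genes. At a bound of 2-fold 4 calls were left, Itga3, Itga6, Itga1 and Itga4; with intervals widened by the dispersion of the fit over all 6 libraries only that of Itga3 was left. So large a share of all genes was called that the count of subunits is not particular to integrins.

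The double heterozygous library differed from WT in 6 of 10 subunits, 3 higher and 3 lower, where 40.7% of all genes were called, 21.6% higher and 19.1% lower. Itgb5, Itga3 and Itga1 were 2.85-fold (2.7 to 3.02), 2.60-fold (2.0 to 3.44) and 2.11-fold (1.93 to 2.31) higher. Itga2, Itgb3 and Itga4 were 3.06-fold (2.5 to 3.75), 2.48-fold (2.28 to 2.70) and 2.45-fold (2.13 to 2.80) lower. The members' median log2 ratio was -0.08, beside 0.07 over all genes. With intervals widened by the dispersion of 4 libraries the calls of Itgb5 and Itga2 were left, and with the wider dispersion of the fit over all 6 libraries 0 were.

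**Figure D1:**
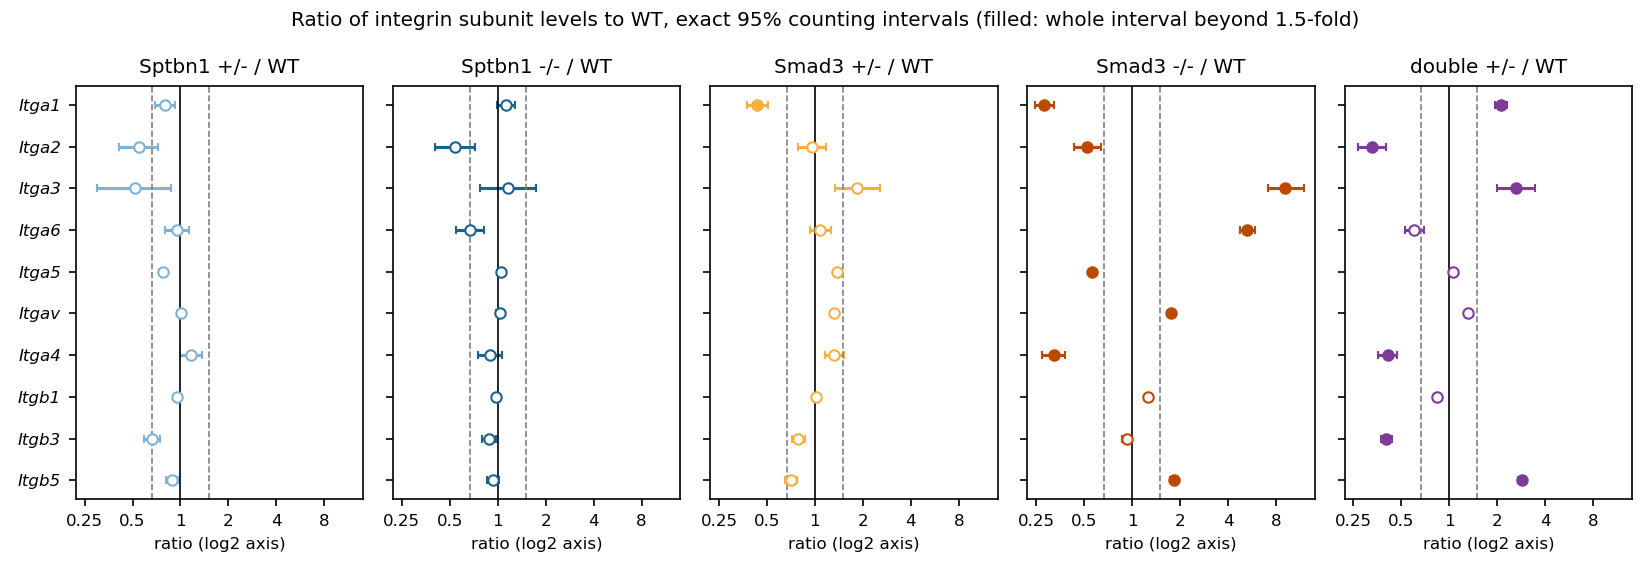
Ratio of each integrin subunit's level to WT in the 5 mutant libraries, on a log2 axis, with exact 95% counting intervals; filled points have the whole interval beyond the dashed lines at 1.5-fold. Both Sptbn1 panels hold open points only, the Smad3+/- panel 1 filled point, and the Smad3-/- and double heterozygous panels 8 and 6.

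Since the Smad3-/- and double heterozygous libraries share the high fraction of reads on genes, they were also set against each other. They were not alike in all of their make-up. Reads ambiguous between genes made up 0.0251% and 0.827% of all. Malat1 was at 4473 and 335 CPM and Rn18s at 349 and 1529 CPM, against 38532 and 64661 CPM in WT. The part of these differences in the ratios below was not tested. Of 10 subunits 3 were higher in Smad3-/- and 3 lower, where 43.1% of all genes were called, 19.8% higher and 23.4% lower. Itga6 was 8.75-fold (8.01 to 9.57), Itga3 3.51-fold (3.15 to 3.92) and Itgb3 2.31-fold (2.15 to 2.48) higher in Smad3-/- than in the double heterozygote, and Itga1 was 7.52-fold (6.71 to 8.46), Itga5 1.91-fold (1.85 to 1.97) and Itgb5 1.56-fold (1.51 to 1.62) lower. At a bound of 2-fold 4 calls were left (Itga3, Itga6, Itgb3 and Itga1), with the dispersion of 4 libraries 3 (Itga3, Itga6 and Itga1), and with that of the fit over all 6 libraries 2 (Itga6 and Itga1). The Itgb5 call was lost, and Itgb1 called, with DESeq2 size factors or total counts.

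The Smad3-/- and double heterozygous libraries shared 5 called subunits: Itga2 and Itga4 lower in both, Itga3 and Itgb5 higher in both, and Itga1 lower in Smad3-/- and higher in the double heterozygote. Both libraries are set against the same WT library. Their promoters are shown because these are the members the results turn on. Each is a 300-base window from RefSeq (GRCm38.p6), from 250 bases before to 50 after the annotated start, 5′ to 3′ on the gene's strand. Capitals mark matches to CAGAC or its complement GTCTG (the SMAD box, the short element SMAD3 can contact), GGGCGG or its complement CCGCCC (the GC box of Sp1-type factors) and TGANTCA (the AP-1 site).
Itga1 promoter, chr13:115101915-115102214, minus strand: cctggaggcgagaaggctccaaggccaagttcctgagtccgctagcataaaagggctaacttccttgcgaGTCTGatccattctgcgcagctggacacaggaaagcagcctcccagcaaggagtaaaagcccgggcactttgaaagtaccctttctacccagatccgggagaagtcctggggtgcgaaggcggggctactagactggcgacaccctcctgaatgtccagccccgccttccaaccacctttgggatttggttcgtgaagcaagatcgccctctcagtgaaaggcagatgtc
Itga2 promoter, chr13:114932051-114932350, minus strand: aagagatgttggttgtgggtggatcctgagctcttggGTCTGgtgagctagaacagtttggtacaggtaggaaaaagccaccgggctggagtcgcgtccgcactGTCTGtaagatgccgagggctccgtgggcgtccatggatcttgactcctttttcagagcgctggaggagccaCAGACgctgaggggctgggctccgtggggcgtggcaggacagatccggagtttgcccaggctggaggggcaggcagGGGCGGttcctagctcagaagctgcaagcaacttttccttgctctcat
Itga3 promoter, chr11:95076665-95076964, minus strand: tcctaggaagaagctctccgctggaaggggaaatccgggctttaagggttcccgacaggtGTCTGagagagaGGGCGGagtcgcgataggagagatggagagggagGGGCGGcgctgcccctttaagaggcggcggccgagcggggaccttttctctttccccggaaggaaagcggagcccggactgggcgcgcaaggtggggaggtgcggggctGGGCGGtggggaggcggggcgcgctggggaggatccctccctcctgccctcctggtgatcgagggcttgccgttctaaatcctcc
Itga4 promoter, chr2:79255176-79255475, plus strand: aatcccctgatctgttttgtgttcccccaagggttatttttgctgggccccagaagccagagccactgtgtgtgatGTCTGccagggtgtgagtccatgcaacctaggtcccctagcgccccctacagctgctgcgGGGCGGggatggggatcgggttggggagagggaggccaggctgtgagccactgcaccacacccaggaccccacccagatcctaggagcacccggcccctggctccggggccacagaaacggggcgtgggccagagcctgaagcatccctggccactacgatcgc
Itgb5 promoter, chr16:33829415-33829714, plus strand: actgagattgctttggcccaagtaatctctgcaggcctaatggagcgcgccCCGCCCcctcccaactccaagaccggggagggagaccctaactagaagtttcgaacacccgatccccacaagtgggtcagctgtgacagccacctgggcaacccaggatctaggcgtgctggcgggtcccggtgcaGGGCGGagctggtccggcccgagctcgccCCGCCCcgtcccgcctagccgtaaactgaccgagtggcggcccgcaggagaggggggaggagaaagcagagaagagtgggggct

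The Itga2 window held 3 SMAD boxes, at positions -213, -146 and -74 from the start, those of Itga1, Itga3 and Itga4 held 1 each, and that of Itgb5 none. Over the 32851 windows of this length in the RefSeq table, 49.6% hold at least 1 SMAD box on either strand, 35.7% a GC box and 7.81% an AP-1 site. Of 9 windows found for 8 members, 6 held a SMAD box, 8 a GC box and 1 an AP-1 site, the last at a second start of Itga3. The motifs do not overlap each other in the sequences printed. GC boxes numbered 3 each in the printed windows of Itga3 and Itgb5, 1 each in those of Itga2 and Itga4, and 0 in that of Itga1. These matches are descriptions of letters in a short window, and their part in the levels was not tested. No window was used for Itga6 and Itgb3.

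Itga1 and Itga2 encode the alpha1 and alpha2 chains, which pair with beta1 to bind collagens. Itga1 was at 41.2, 58.3, 22.5, 14.5 and 109 CPM in the Sptbn1+/-, Sptbn1-/-, Smad3+/-, Smad3-/- and double heterozygous libraries, and at 51.6 CPM in WT. The double heterozygote was thus the highest and Smad3-/- the lowest, with counts of 3421 and 326. Only WT and Sptbn1-/- among neighbours in this order had an interval that included equal levels (1.13-fold, 0.991 to 1.29). Itga2 was at 10.0, 9.86, 17.4, 9.55 and 5.96 CPM in the same 5 mutant libraries and at 18.2 CPM in WT. WT and Smad3+/- were high and did not differ beyond counting error, Sptbn1+/-, Sptbn1-/- and Smad3-/- formed a middle level whose neighbours did not differ either, and the double heterozygote was lowest. Per exon length, the ratio of Itga1 to Itga2 within a library, which needs no scaling between libraries, was 0.494 (0.405 to 0.604) in Smad3+/-, 0.582 (0.488 to 0.694) in Smad3-/- and 7.02 (6.05 to 8.17) in the double heterozygote, against 1.09 (0.924 to 1.28) in WT. It was 1.58 (1.21 to 2.09) in Sptbn1+/- and 2.27 (1.74 to 2.99) in Sptbn1-/-. Itga2 rests on 66 to 215 counts per library, which limits its precision most among the subunits beside Itga3.

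Itga3 and Itga6 encode the laminin-binding chains alpha3 and alpha6, best known from epithelia and their basement membranes. Itga3 was at 2.94, 6.57, 10.5, 51.8 and 14.7 CPM in Sptbn1+/-, Sptbn1-/-, Smad3+/-, Smad3-/- and the double heterozygote, and at 5.66 CPM in WT. Its order was thus led by Smad3-/-, followed by the double heterozygote and Smad3+/-, the 3 libraries labelled with a mutant Smad3 allele. The low end rests on few reads, 20 counts in Sptbn1+/- and 64 in WT. Itga6 was at 28.9, 20.3, 32.9, 159.95 and 18.3 CPM in the 5 mutant libraries and at 30.3 CPM in WT. Smad3-/- stood 4.87-fold (4.35 to 5.46) above the next library, while the other 5 lay within 18.3 to 32.9 CPM. Between Smad3+/-, WT and Sptbn1+/- no neighbouring pair differed beyond counting error, and nor did Sptbn1-/- and the double heterozygote.

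Of 12 epithelial markers 8 were measured, and in the Smad3-/- library 3 were higher than in WT and 0 lower. These 3 were the keratins of simple epithelia Krt19, Krt18 and Krt8, at 31.1, 31.4 and 4.97 CPM, against 2.30, 3.89 and 1.15 CPM in WT. The median log2 ratio of the measured markers was -0.16 in Smad3-/-, where Itgb4 was at 1.78 CPM, against 1.68 CPM in WT. In Smad3+/- 3 of the markers were higher and 0 lower, and in the double heterozygote 0 were higher and 3 lower. The summed level of the list was 71.0 CPM in Smad3-/- and 8.89 to 33.5 CPM in the other 5 libraries. Krt5, Krt14, Esrp1 and Grhl2 were at 0 counts in Smad3-/-, but at only 3, 2, 0 and 3 counts in WT, so these zeros tell little. Esrp1 and Grhl2 were under 1 CPM in every library. Epcam and Cdh1 were at 0.222 and 1.02 CPM in Smad3-/-, against 0.708 and 2.57 CPM in WT. Skeletal muscle markers were higher for 3 of 5 measured in the same library, at a summed 147 CPM against 77.8 CPM in WT. Myf6 and Pax7 were at 0 counts there, and at 0 and 2 counts in WT. Smooth muscle markers were higher for 5 of 8, at 5512 CPM against 2349.6 CPM in WT, with none at 0 counts. Of all genes, 24.2% were higher and 25.2% lower in Smad3-/-, 1.64% and 4.46% in Smad3+/-, and 21.6% and 19.1% in the double heterozygote. No difference of these lists from those shares was tested. The part of any of these lists in the Itga3 and Itga6 levels was not tested.

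Itga5 and Itgav encode alpha5, whose receptor with beta1 binds fibronectin, and alphav, which pairs with beta1, beta3 or beta5 to bind vitronectin, fibronectin and latent TGF-beta. Itga5 was at 328, 446, 582, 236 and 449 CPM in Sptbn1+/-, Sptbn1-/-, Smad3+/-, Smad3-/- and the double heterozygote, and at 424 CPM in WT. Smad3+/- was highest and Smad3-/- lowest, and the double heterozygote and Sptbn1-/- did not differ beyond counting error (a ratio of 0.968 to 1.05). Itgav was at 407, 415, 533, 706 and 529 CPM in the same mutant libraries and at 404 CPM in WT. The Sptbn1 libraries and WT were level within counting error, Smad3+/- and the double heterozygote shared a higher level (a ratio of 0.978 to 1.04), and Smad3-/- was highest.

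The balance between the Itga5 and Itgav messengers, taken per exon length, was reversed in a single library. It rests on exon lengths of 4933 bases for Itga5 and 10744 bases for Itgav. Per exon length, Itga5 exceeded Itgav 1.76-fold (1.66 to 1.86) in Sptbn1+/-, 2.34-fold (2.22 to 2.47) in Sptbn1-/-, 2.38-fold (2.29 to 2.47) in Smad3+/- and 1.85-fold (1.81 to 1.89) in the double heterozygote, as it did 2.29-fold (2.2 to 2.38) in WT. In Smad3-/- the ratio of Itga5 to Itgav was 0.727 (0.705 to 0.75), so that Itgav was there the more abundant. In the GENCODE M21 annotation 5.9% of the exon bases of Itgav overlap a non-coding transcript on the other strand, and it is not stated whether reads were counted by strand.

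Itga4 encodes alpha4, a chain that binds fibronectin and the adhesion molecule Vcam1 and is also carried by many leukocytes. Itga4 was at 40.9, 31.5, 46.4, 11.3 and 14.4 CPM in Sptbn1+/-, Sptbn1-/-, Smad3+/-, Smad3-/- and the double heterozygote, and at 35.1 CPM in WT. The levels fell into a higher group of 4 libraries and a lower pair, Smad3-/- and the double heterozygote. Within the group no neighbours differed beyond counting error, but Sptbn1-/- was at 77.0% (64.1 to 92.5) of Sptbn1+/-. The step from the group to the pair was 2.20-fold (1.86 to 2.59). It coincides with the division of the libraries by the share of reads on genes, so genotype and that difference in make-up cannot be told apart for Itga4. Macrophage and leukocyte markers were lower for 21 of 21 in Smad3-/- (a summed 77.5 CPM, against 2817 CPM in WT) and lower for 10 and higher for 2 of 21 in the double heterozygote (2056 CPM). Of all genes, 25.2% were lower and 24.2% higher in Smad3-/-, and 19.1% and 21.6% in the double heterozygote. None of the 21 was at 0 counts in any library, and their part in the Itga4 level was not tested. Vcam1, the ligand on cells, was 4.45-fold (4.23 to 4.69) higher in the double heterozygote than in WT. In GENCODE M21, 8.04% of the exon bases of Itga4 overlap the gene Cerkl on the other strand.

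Itgb1 encodes beta1, the partner of most alpha chains of fibroblasts and the steadiest member. It was at 1459.6, 1513, 1562, 1939.6 and 1297 CPM in Sptbn1+/-, Sptbn1-/-, Smad3+/-, Smad3-/- and the double heterozygote, and at 1544 CPM in WT. The highest library stood 1.496-fold over the lowest, a spread of 1.07-fold among the 4 libraries other than Smad3-/- and the double heterozygote. With 9913 to 43665 counts the intervals were narrow: Smad3-/- was at 126% (123 to 128) and the double heterozygote at 84.0% (82.5 to 85.5) of WT, both inside the 1.5-fold bound.

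Itgb3 and Itgb5 encode the beta chains that pair with alphav. Itgb3 was at 62.6, 83.2, 73.9, 87.3 and 37.8 CPM in Sptbn1+/-, Sptbn1-/-, Smad3+/-, Smad3-/- and the double heterozygote, and at 93.9 CPM in WT. The double heterozygote was lowest. WT did not differ from Smad3-/- beyond counting error, nor did Smad3-/- from Sptbn1-/-, while Sptbn1-/- was at 88.6% (79.8 to 98.3) of WT. Itgb5 was at 109, 116, 86.8, 225 and 352 CPM in the 5 mutant libraries and at 123 CPM in WT. The double heterozygote and Smad3-/- were high, each step 1.5-fold or more above the next library. These are the libraries with the high share of reads on genes, so genotype and that difference in make-up cannot be told apart for Itgb5. The same holds for every other subunit where these libraries are set against WT. WT, Sptbn1-/- and Sptbn1+/- did not differ between neighbours, while Sptbn1+/- was at 88.5% (80.8 to 96.8) of WT. Per exon length, the ratio of Itgb5 to Itgb3 was 2.9 (2.57 to 3.27) in Sptbn1+/-, 2.3 (2.06 to 2.57) in Sptbn1-/- and 1.95 (1.77 to 2.15) in Smad3+/-, against 2.18 (2.01 to 2.36) in WT. It was 4.28 (4.06 to 4.51) in Smad3-/- and 15.4 (14.5 to 16.4) in the double heterozygote, where Itgb5 was high and Itgb3 low in the same library.

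**Figure D2:**
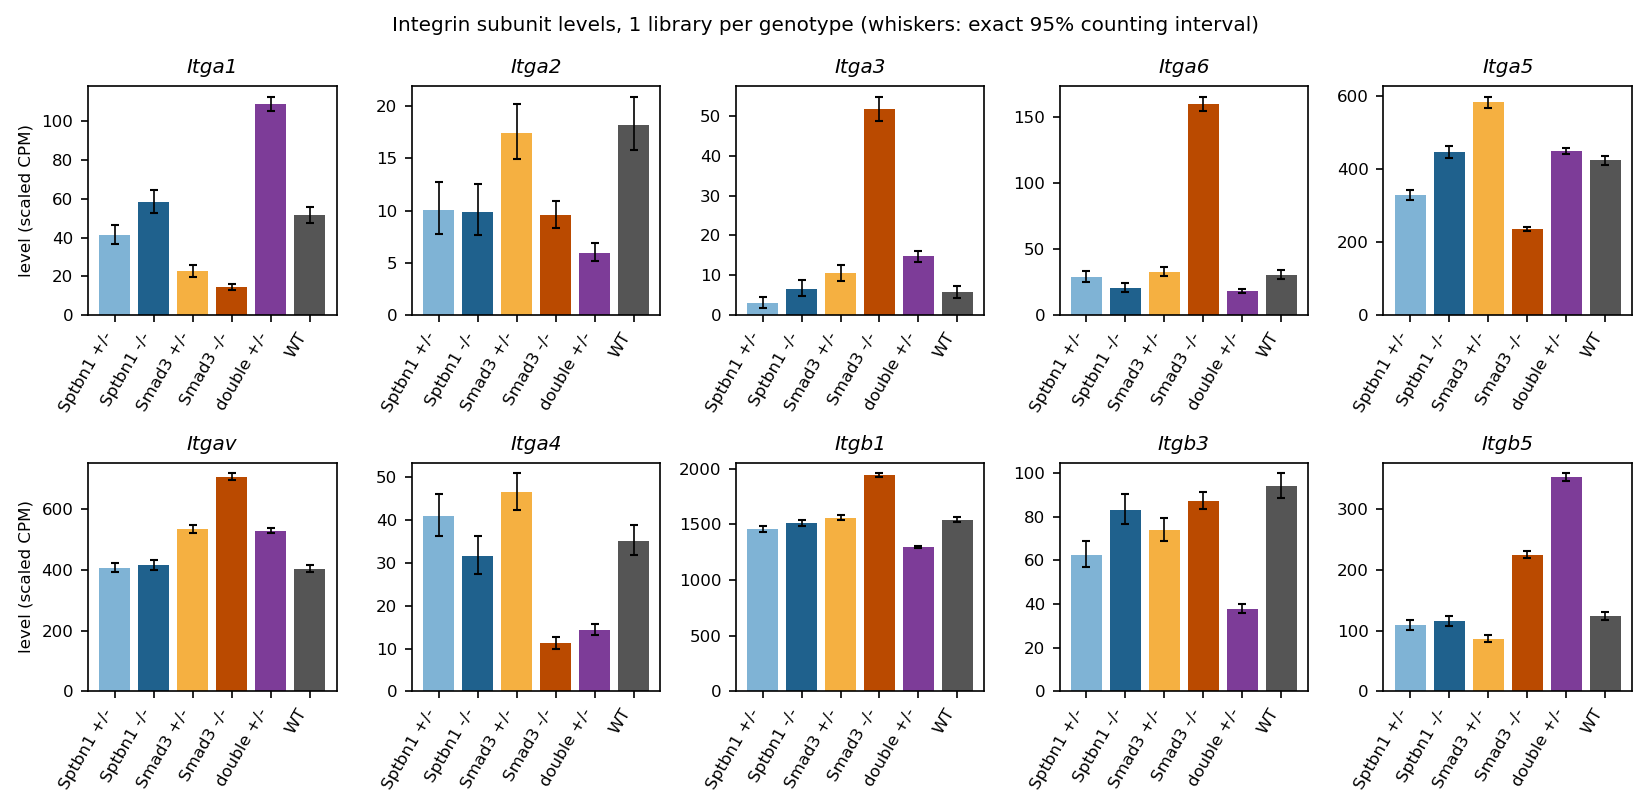
Levels of the 10 integrin subunits in CPM, 1 bar per library with mutant libraries left of WT and whiskers for the exact 95% Poisson interval of the count. Itga3 and Itga6 peak in Smad3-/- (51.8 and 159.95 CPM), Itga1 and Itgb5 in the double heterozygote (109 and 352 CPM), and Itgb1 varies least (1297 to 1939.6 CPM).

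Levels of different genes were compared only per exon length, in CPM per kb of all annotated exons. The summed level of the 3 beta chains was 399, 417, 419.6, 553 and 423 CPM per kb in Sptbn1+/-, Sptbn1-/-, Smad3+/-, Smad3-/- and the double heterozygote, and 429 in WT. That of the 7 alpha chains was 115, 139, 180.1, 143 and 153 CPM per kb in the mutant libraries and 136 in WT, so the messenger of the beta chains exceeded that of the listed alpha chains in every library. Itgb1 made up 89.6, 88.8, 91.2, 85.9 and 75.1% of the beta sum in the 5 mutant libraries and 88.2% in WT. Itgb5 took 23.4% of the beta sum in the double heterozygote and 11.4% in Smad3-/-, against 8.09% in WT.

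Among the alpha chains Itga5 and Itgav together dominated. Itga5 made up 58.0, 65.0, 65.5, 33.4 and 59.7% of the alpha sum in Sptbn1+/-, Sptbn1-/-, Smad3+/-, Smad3-/- and the double heterozygote, and 63.3% in WT. Itga6 and Itga3 held 12.4 and 6.34% of the alpha sum in Smad3-/-, against 2.48 and 0.731% in WT. Itga1 held 3.84% in the double heterozygote and 0.544% in Smad3-/-, against 2.04% in WT. Exon lengths come from an annotation of another genome build than the reads, so the shares are approximate.

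**Figure D3:**
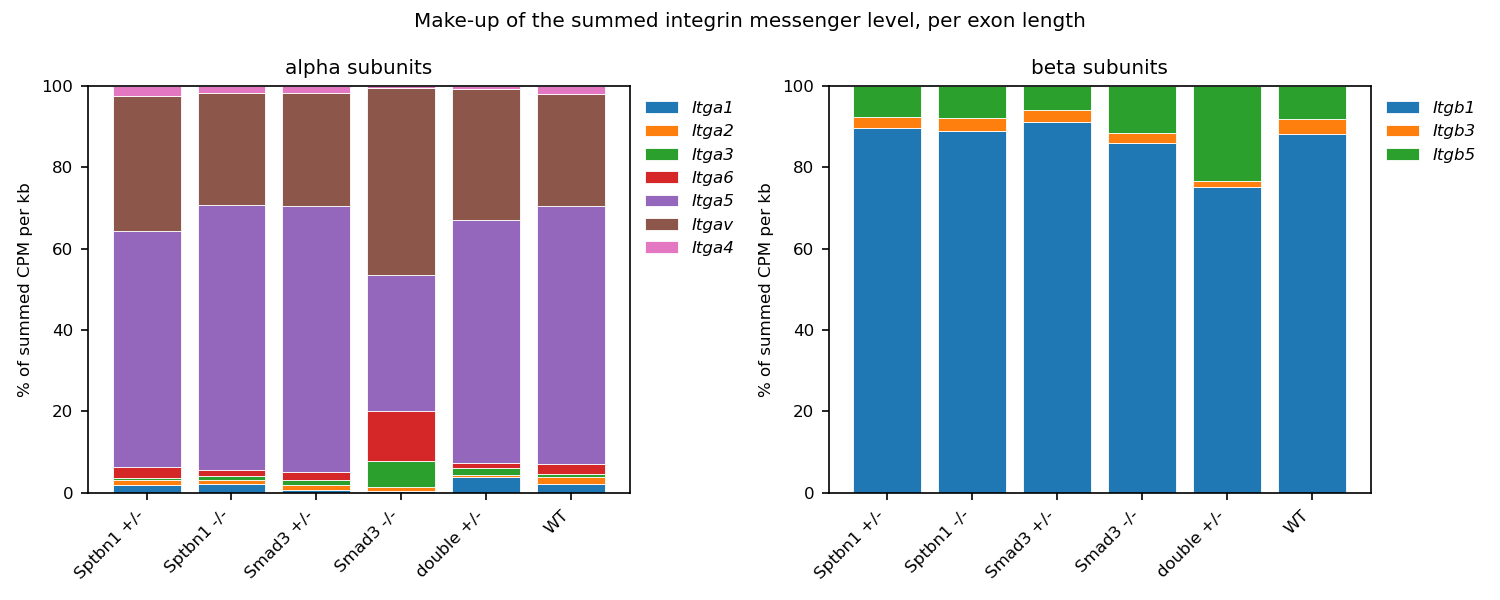
Make-up of the summed alpha (left) and beta (right) subunit level in each library, as a percentage of the summed CPM per kb of exon, with mutant libraries left of WT. Itga5 falls to 33.4% of the alpha sum in Smad3-/- against 63.3% in WT, and Itgb5 takes 23.4% of the beta sum in the double heterozygote against 8.09% in WT.

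The double heterozygote was set against what the single heterozygotes would give if their log2 differences from WT added up. Of 10 subunits 3 lay above that value and 1 below by more than 1.5-fold, where 35% of all genes departed, 18.5% above and 16.5% below. Itga1 was observed at 109 CPM, against 18.0 CPM from the single heterozygotes, a departure of 2.60 on the log2 scale (2.31 to 2.88). Itgb5 was observed at 352 CPM against 76.8 CPM (2.19, 2.03 to 2.36), and Itga3 at 14.7 CPM against 5.44 CPM (1.41, 0.63 to 2.19). Itga4 was observed at 14.4 CPM against 54.1 CPM (-1.91, -2.20 to -1.63). Itga5 and Itgav lay on the expected value, at 449 against 451 CPM and 529 against 538 CPM, with departures of -0.01 (-0.09 to 0.08) and -0.03 (-0.11 to 0.06). Against Sptbn1+/- the double heterozygote had 3 subunits higher (Itga1, Itga3 and Itgb5) and 1 lower (Itga4), where 39.4% of all genes were called, 21.1% higher and 18.3% lower. Against Smad3+/- it had 2 higher (Itga1 and Itgb5) and 4 lower (Itga2, Itga4, Itga6 and Itgb3), where 41.5% were called, 22.5% higher and 19% lower. The double heterozygote is the sole library of this group with the high share of reads on genes, so the departure and that difference in make-up cannot be told apart. Smad3+/-, which enters the expected value, is also the female library. The Y-linked gene Ddx3y was at 0.388 CPM there, against 127, 132 and 143 CPM in WT, Sptbn1+/- and the double heterozygote. The part of sex in the departure was not tested.

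**Figure D4:**
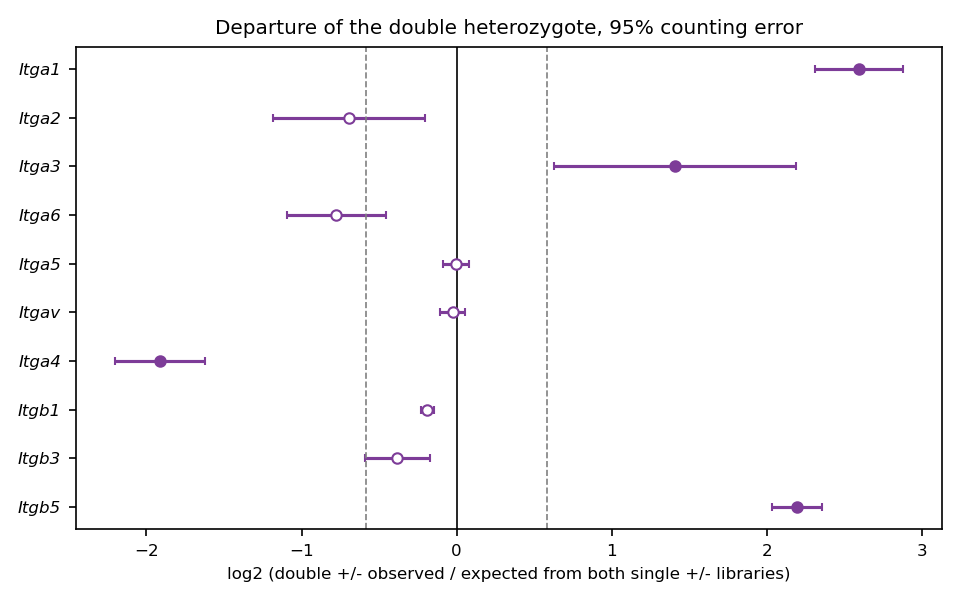
Departure of the double heterozygote from the sum of the log2 differences of both single heterozygotes, per integrin subunit, with its 95% counting error; filled points lie wholly beyond the dashed lines at 1.5-fold. Itga1, Itgb5 and Itga3 lie above (2.60, 2.19 and 1.41), Itga4 below (-1.91), and Itga5 and Itgav at 0 within error.

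The number of labelled mutant alleles was fitted over all 6 libraries with edgeR's quasi-likelihood test, which leaves 3 residual degrees of freedom. Of 14085 genes 0 passed an adjusted p of 0.05 (0%), for either gene, and 0 of 10 integrin subunits did. At an unadjusted p under 0.05 there were 21 genes for Sptbn1 and 3404 for Smad3, of which 0 and 1 were members, the last Itga3 with 1.70 per Smad3 allele on the log2 scale (Benjamini-Hochberg adjusted p = 0.16). DESeq2's Wald test called 0 genes for Sptbn1 (59 at an unadjusted p under 0.05) and 2049 for Smad3, and of the members only Itga3 passed that test (DESeq2 adjusted p = 0.000315). Itga3 had a point ratio above WT in 3 of the 3 libraries with a mutant Smad3 allele. In Smad3+/- it was not called (1.85-fold, 1.34 to 2.56, on 108 against 64 counts). Smad3 counts go against these labels, and 2 of those libraries are the ones with the high share of reads on genes.

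The other 16 integrin genes were counted from a list, and 14 had at least 1 CPM in some library; Itgam and Itgb2 are also among the leukocyte markers. In Sptbn1+/-, 2 of 14 were lower and 0 higher, the leukocyte chains Itgax (18.3-fold, 4.86 to 155, on 2 against 61 counts) and Itgam (1.93-fold, 1.74 to 2.14), and in Sptbn1-/- 0 were called. Of the 21 macrophage and leukocyte markers 6 were lower and 0 higher in Sptbn1+/-, at a summed 1806 CPM against 2817 CPM in WT, with none at 0 counts, and their part in both calls was not tested. In Smad3+/-, 4 were lower and 0 higher, led by Itga11, the fibroblast receptor of fibrillar collagen, 4.62-fold (4.29 to 4.99) lower. Itgax and Itgb8, a partner of alphav, were 6.19-fold and 3.13-fold lower, on 9 and 30 counts against 61 and 103 in WT. In Smad3-/-, 7 were lower, among them Itgam (72.4-fold), Itgal (87.1-fold, 33.4 to 323, on 4 against 175 counts) and Itga11 (34.0-fold, 29.9 to 38.9). There 1 was higher, Itgb7 (9.79-fold, 4.37 to 27.2, on 117 against 6 counts). In the double heterozygote 4 were lower, with Itgax 28.2-fold, Itga8, an RGD-binding chain of mesenchyme, 5.73-fold and Itga11 2.99-fold lower than in WT. The Itgax value rests on 6 against 61 counts (12.3 to 79.9). Of all genes, 0.635, 0.648, 1.64, 24.2 and 21.6% were higher in Sptbn1+/-, Sptbn1-/-, Smad3+/-, Smad3-/- and the double heterozygote. Shares lower were 1.2, 0.412, 4.46, 25.2 and 19.1% in the same order, and no difference from these shares was tested.

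Collagen-binding chains thus differed among themselves in direction. In the double heterozygote Itga1 was higher, while Itga2 and Itga11 were lower than in WT. In Smad3-/- Itga1, Itga2 and Itga11 were all lower. Itga11 was at 397, 366, 79.5, 10.8 and 123 CPM in Sptbn1+/-, Sptbn1-/-, Smad3+/-, Smad3-/- and the double heterozygote, and at 367 CPM in WT, and so was lower in every library labelled with a mutant Smad3 allele. Itga10, the remaining collagen-binding chain, was at 1.11 to 4.62 CPM.

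Integrin ligands were taken as a list of 41 matrix and surface proteins, all measured. In the Sptbn1+/- library 1 was higher (Nov, a matricellular protein, 1.9-fold) and 2 lower, Spp1 (osteopontin) 2.0-fold and the laminin chain Lama5 2.05-fold, and in Sptbn1-/- Spp1 alone was lower, 2.62-fold. Smad3+/- had 0 higher and 12 lower, with Col3a1 2.96-fold, the laminin chain Lama1 3.64-fold and the alphav ligand Edil3 2.96-fold lower. Of all genes 0.635% were higher and 1.2% lower in Sptbn1+/-, 0.648% and 0.412% in Sptbn1-/-, and 1.64% and 4.46% in Smad3+/-. No difference from these shares was tested. Smad3-/- had 7 higher and 15 lower, with the basement membrane collagen Col4a1 3.09-fold, Egfl7 8.98-fold and Mfge8, an alphav ligand, 2.13-fold higher, and Postn, Nov and Lama1 10.1-fold, 10.8-fold and 10.5-fold lower. The double heterozygote had 23 higher and 9 lower, with the leukocyte ligands Icam1 and Vcam1 12.6-fold and 4.45-fold higher, Egfl7 8.86-fold higher, and Ctgf and Lama1 4.98-fold and 5.39-fold lower. Over the 41 ligands the median log2 ratio was -0.44 in Smad3-/- and 0.79 in the double heterozygote, beside 0.06 and 0.07 over all genes, of which 24.2% were higher and 25.2% lower in Smad3-/- and 21.6% and 19.1% in the double heterozygote.

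Of 49 genes of integrin activators and the adhesion plaque 48 were measured. In Sptbn1+/- 0 were higher and 1 lower, there was no call in Sptbn1-/-, and Smad3+/- had 2 higher, the parvin gene Parvb (3.2-fold) and the tensin gene Tns4 (4.66-fold, 1.52 to 19.0). Of all genes 1.83% were called in Sptbn1+/-, 1.06% in Sptbn1-/- and 6.1% in Smad3+/-. In Smad3-/- 10 were higher, led by the kinase Src (4.43-fold), the actin crosslinkers Flna (2.59-fold) and Actn1 (2.43-fold), and 12 were lower, led by the endocytic adaptor Dab2 (5.96-fold), the leukocyte kindlin Fermt3 (7.84-fold) and Tgfb1i1 (3.84-fold). In the double heterozygote 12 were higher, led by Src (4.28-fold), Trip6 (2.36-fold) and the Src-inhibiting kinase Csk (2.29-fold), and 12 were lower, led by Lpp (5.82-fold), Lims2 (3.94-fold) and Tgfb1i1 (2.67-fold). Over the 48 genes the median log2 ratio was -0.03 in Smad3-/- and -0.05 in the double heterozygote. Among all genes 24.2% were higher and 25.2% lower in Smad3-/-, and 21.6% higher and 19.1% lower in the double heterozygote, so the counts of this list lie near those shares.

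Of 20 membrane proteins that associate with integrins 20 were measured, with 0 called in either Sptbn1 library and 1 in Smad3+/-, the urokinase receptor Plaur, 1.87-fold higher. Among all genes 1.83% were called in Sptbn1+/-, 1.06% in Sptbn1-/- and 6.1% in Smad3+/-. Smad3-/- had 9 higher, led by Plaur (3.76-fold), the tetraspanin Tspan4 (3.54-fold) and Nrp1 (2.42-fold), and 6 lower, led by Thy1 (5.15-fold), Cd47 (3.47-fold) and the tetraspanin Cd63 (3.11-fold). The double heterozygote had 9 higher, led by the tetraspanin Cd82 (7.34-fold), the collagen receptor kinase Ddr1 (3.46-fold) and Tspan4 (3.02-fold), and 2 lower, Thy1 (2.57-fold) and Cd44 (2.21-fold). The same shares of all genes, 24.2% higher and 25.2% lower in Smad3-/- and 21.6% and 19.1% in the double heterozygote, stand beside these counts, and no difference from them was tested.

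**Figure D5:**
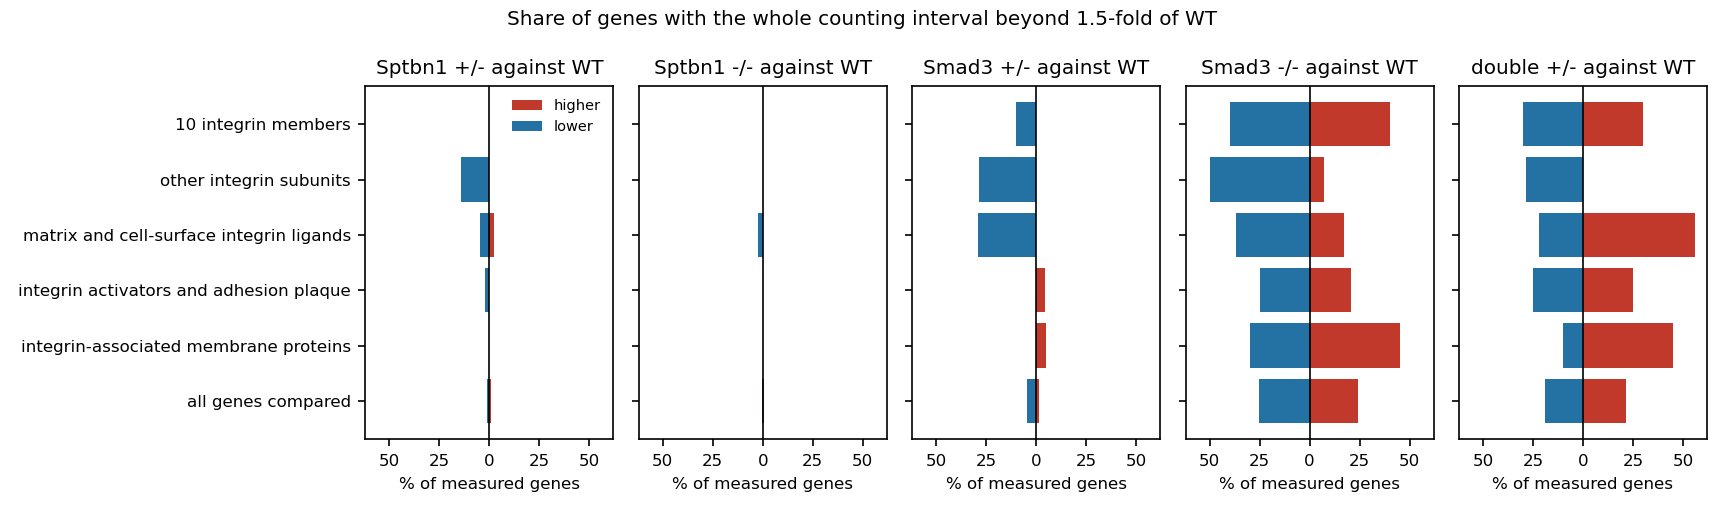
Percentage of measured genes higher (red, to the right) and lower (blue, to the left) than WT by the 1.5-fold interval rule, in the 5 mutant libraries, for the 10 integrin subunits, the 4 lists of related genes and all 14810 genes. Integrin ligands are mostly higher in the double heterozygote (23 of 41) and mostly lower among those called in Smad3-/- (15 lower, 7 higher).

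Genes with the most similar pattern were sought among 8661 genes with at least 5 CPM in all 6 libraries, by Pearson's correlation of log2 CPM over the 6 libraries, given as a description without a test. The points share their libraries, and with 6 of them high values occur for many genes. Itga1 was most like Pfkfb3, a regulator of glycolysis (r = 0.997), Ppp1r3b, which targets a phosphatase to glycogen (0.994), and Mxi1, an antagonist of Myc (0.989). Itgb5 was most like Trappc9 and Tpst1 (0.999 and 0.999), Itga6 like Fbxo5, Myef2 and Exoc8 (0.996, 0.996 and 0.994), and Itga3 like Bin1, Agpat1 and Rps19bp1 (0.995, 0.992 and 0.991). Itga4 was most like Ank3, which encodes the spectrin-binding protein ankyrin-G, Sptlc2 and Gxylt1 (0.997, 0.996 and 0.995), and Itgav like Map2k3, Med4 and Mmd (0.996, 0.995 and 0.995). The values for Itgb1 (Bok, Rbbp8 and Eif5a2) were 0.997, 0.996 and 0.996, and those for Itga2 (Arnt2, Crip1 and Gtf2b), Itga5 (Rprd1b, Mkl1 and Tob1) and Itgb3 (Phip, Tanc1 and Hadhb) lay between 0.965 and 0.983.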

How the data were processed

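Per the labels' protocols, total RNA of mouse embryonic fibroblasts was extracted with TRIZOL and 1 library per genotype prepared with an Illumina TruSeq RNA kit. The authors deposited raw read counts per gene symbol, with 5 closing summary lines, which were left out of library sizes. TopHat2 2.0.10, HTSeq, DESeq2, FastQC, Trimmomatic and the build mm9 are named, without roles, per the submitters' processing notes; annotation, counting mode and strand setting are not given in the sources used here. TMM scaling used edgeR 4.0.16 (limma 3.58.1, R 4.3.3). Count ratios with exact intervals were computed with scipy 1.17.1 for 9 pairs of libraries and the 14810 genes reaching 1 CPM in any library. The departure of the double heterozygote used 0.5 added counts. The allele-number fit used genes reaching 1 CPM in 2 or more libraries, with Benjamini-Hochberg adjustment, with DESeq2 1.42.0 as an alternative. Exon lengths are unions of GENCODE M21 exons (GRCm38). Lamb1 is listed as Lamb1-1. Every member is named; of each list, up to 3 called genes per direction are named, those whose interval bound nearest to 1-fold lies farthest from it; some items are not reported here. Members and lists were chosen with earlier results of these data known. The procedures were tested on simulated data. The reads carry no molecular identifiers, so intervals cover counting error only. Alternatives were other scalings, filters, bounds, widened intervals and fits without 1 library; scaling within each set of libraries was added after the data were seen.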

Additional observations from a re-analysis of the deposited data

Results flagged for a closer look

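Itga1 moved in opposite directions under the same contrast on different backgrounds. Smad3 heterozygosity went with 0.436 times the level (0.373 to 0.508) in the Smad3+/- library against WT, and with 2.64 times the level (2.34 to 3.0) in the double heterozygote against Sptbn1+/-. In counts this was 232 against 583, and 3421 against 280. The difference was not tested, since each group is 1 library. The first pair also sets a female against a male library: Xist was at 2747 CPM in Smad3+/- and 16.3 CPM in WT, and the Y-linked gene Ddx3y at 0.388 CPM in Smad3+/- and 127 CPM in WT, and the part of this was not tested. The second pair also crosses the division of the libraries by the share of reads on genes (81.2% against 41.7%), whose part in it was not tested. Under the 1.5-fold interval rule only Itga1 of the 10 subunits showed this, as it alone was called in Smad3+/- against WT. Beyond counting error Itgb5 also reversed, at 0.704 times the level (0.647 to 0.766) in the first pair and 3.22 times (2.99 to 3.48) in the second. Itga4 reversed the other way, at 1.32 times the level (1.15 to 1.51) and then 0.351 times (0.302 to 0.409).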

How the results depend on the processing

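Counting depth and the single library per genotype limit these results. Only another scaling can change a ratio: of 260 subunit ratios recomputed under 4 other scalings, 243 stayed within the main counting interval, 17 moved beyond it (with DESeq2 size factors or total counts), and no called ratio changed sign. The number of subunits called in Smad3+/- against WT was 0 with a 2-fold bound and with either widened interval. In Smad3-/- against WT it was 4 with a 2-fold bound, 4 with intervals widened by the dispersion of 4 libraries and 1 with that of the allele-number fit. In the double heterozygote against WT it was 2 with the dispersion of 4 libraries and 0 with that of the allele-number fit. In Smad3-/- against the double heterozygote it was 3 and 2 under the same widened intervals. These follow from the wider intervals or bound. In the allele-number fit for Smad3, 676 genes and 1 subunit (Itga3, adjusted p = 0.0409) passed without the Sptbn1 term in edgeR, and 2049 genes and 1 subunit with DESeq2's Wald test, against 0 and 0; the cause was not tested. Without each library in turn edgeR called 0 genes and 0 subunits for either gene. With total counts the Itga2 call in Smad3-/- was lost, and with DESeq2 size factors Itga6 was also called lower in the double heterozygote. No paired analysis was possible because the labels give no replicate numbers and each genotype has 1 library.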
